A study of Canis lupus familiaris with 45 samples.

Results

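The transcripts described here encode 6 enzymes of glycolysis and lactate formation, GAPDH, ENO1, LDHA, LDHB, PFKM and PGK1, in the left ventricle of dogs driven into heart failure by rapid pacing. Every non-control probe set that the array annotation assigns to 1 of these symbols and to no other was taken, which gave 12 of the 23913 probe sets. Of these 12, 10 were bright enough to be tested, and LDHB had no tested probe set. These 6 genes were among 6540 with a symbol on the array. Each value is the log2 signal of a dog, taken as the mean of its 3 arrays, and a difference of 1 on this scale is a doubling of signal.

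All 15 dogs were male and age-matched. In 12 of them the right ventricle was paced at 240 pulses per minute through an implanted pacemaker. The groups of 3 dogs were Day-0 (unpaced), Day-3 (3 days of pacing), Week-1 (1 week), Week-2 (2 weeks) and End-stage (3 to 4 weeks), and no agent or genotype distinguished them. The labels do not say whether the Day-0 dogs were operated on. The transmural tissue of a dog gave 3 RNA isolations with 1 single-colour oligonucleotide array for each, so the 45 arrays describe 15 animals. The question was whether glycolysis transcripts rise under pacing.

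Glycolysis breaks glucose down to pyruvate in the cytosol and yields a little ATP and NADH without oxygen. The healthy adult heart draws most of its energy from the oxidation of fatty acids and lactate, and a greater reliance on glucose has long been discussed in heart failure. Transcript levels say nothing of enzyme activity or of flux through the pathway.

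Ventricular transcripts were abundant in the tissue: 7 of 10 ventricular cardiomyocyte markers were measured, with mean signals between 1988 (RYR2) and 11642 (MYH7), among the brightest on the array. The atrial light chains MYL7 and MYL4 were also measured, at mean signals of 2006 and 435. Median signals per array ran from 33.3 to 48.6. Dogs that shared a number in the labels did not vary independently in every pair of groups, and the strongest such pair was dog 1 of Week-1 and dog 1 of End-stage, whose deviations from their group means correlated at r = 0.353 over the probe sets tested. In a fit without these 2 dogs the number of glycolytic probe sets past the threshold remained 0 in every comparison that used Week-1 or End-stage dogs. The differences of Day-3 and of Week-2 from Day-0 were not recomputed without them. In whole tissue, fewer cells of a type and less RNA per cell cannot be told apart.

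None of the 10 tested probe sets differed between groups past an adjusted p of 0.05 (limma, Benjamini-Hochberg over 14302 probe sets). The share of all tested probe sets past that threshold was 0% at Day-3, 0.028% at Week-1, 0.0839% at Week-2 and 0.014% at End-stage against Day-0. For the mean of the 4 paced groups against Day-0 it was 0.301%. At an unadjusted p under 0.05, 2 glycolytic probe sets passed at Day-3, 1 at Week-1, 3 at Week-2, 1 at End-stage and 2 for the mean of the paced groups, where the shares of all probe sets were 8.07%, 9%, 11.2%, 8.23% and 11.7%. The median difference of the 10 probe sets was −0.12, −0.18, −0.09 and −0.13 from Day-3 to End-stage, and that of all probe sets was between −0.03 and 0.00. PFKM and PGK1 gave 3 each of the 10. With only the brightest probe set of each of the 5 tested genes, the median was 0.02, −0.13, −0.04 and −0.12. The comparisons with Day-0 share the same 3 unpaced dogs and are not independent of each other. The estimates of ENO1 were above 0 at each time and those of PGK1 and of the 2 bright PFKM probe sets below 0, also under both other scalings. For the brightest probe sets of PFKM, LDHA and GAPDH, paced and unpaced dogs overlapped at each time. Differences between the genes were not tested.

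**Figure D1:**
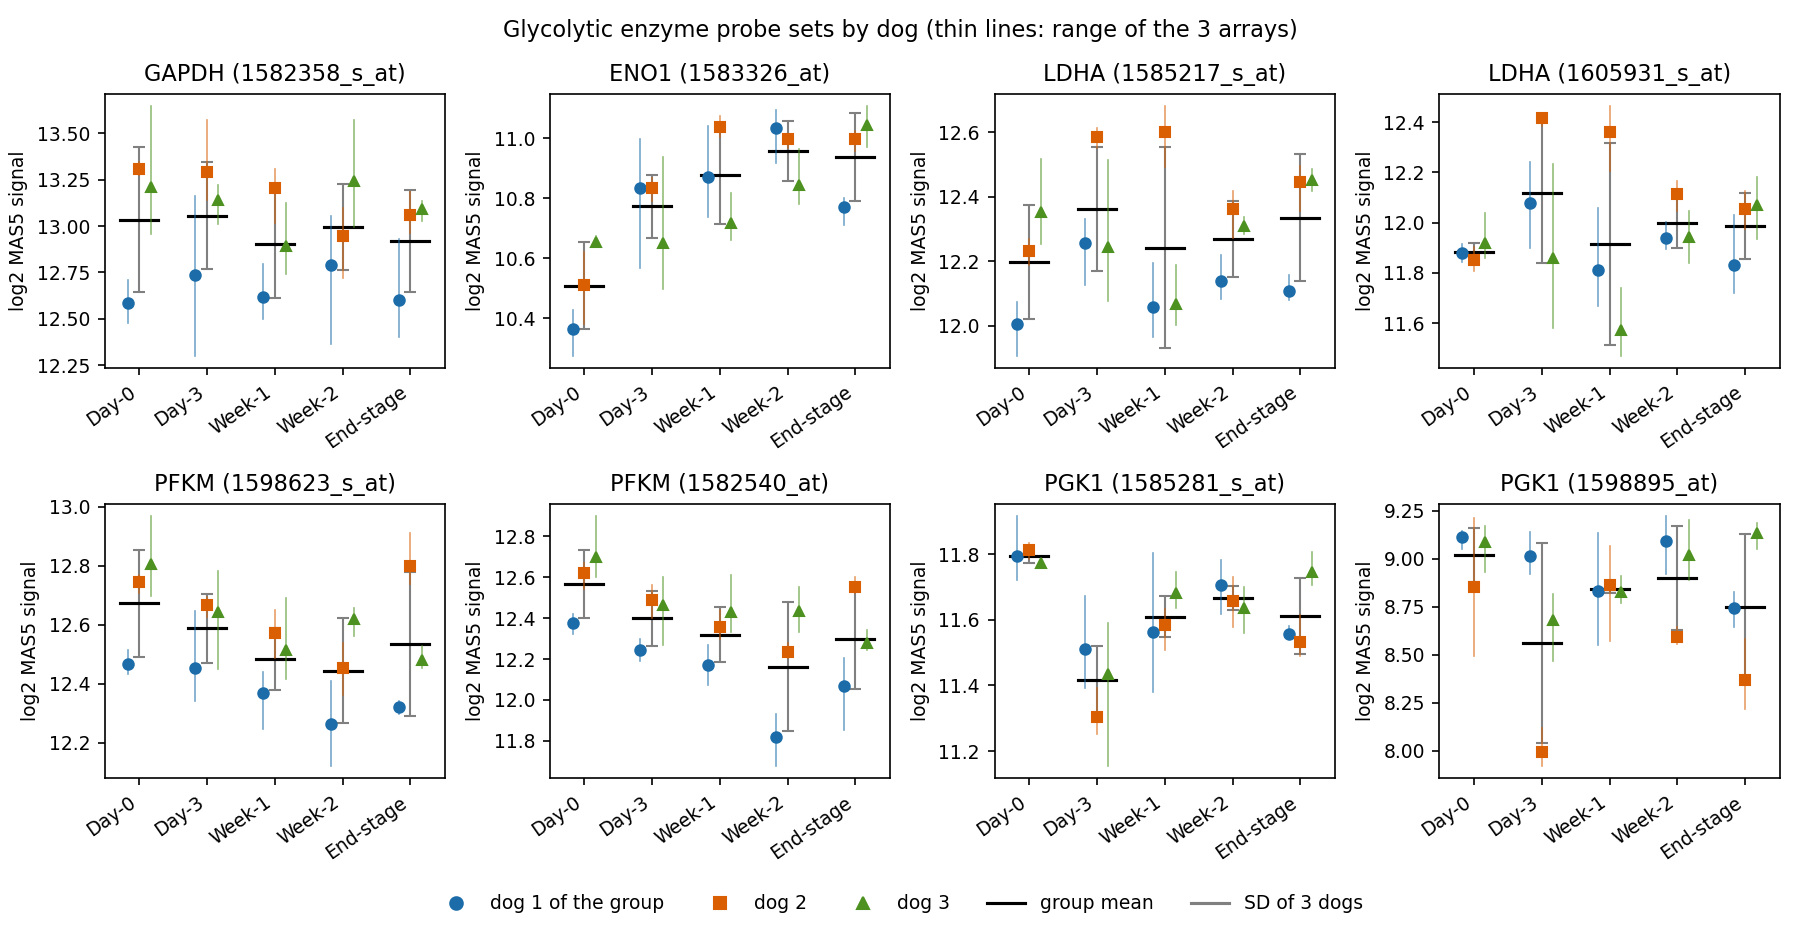
Log2 MAS5 signal (y axis) of the 8 glycolytic probe sets with a mean signal above 100, by time group (x axis). Symbols are dogs, thin coloured lines the range of a dog's 3 arrays, black bars the group mean and grey bars the SD of 3 dogs; ENO1 sits above Day-0 in 11 of 12 paced dogs and PGK1 (1585281_s_at) below it in 12 of 12.

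PFKM, the muscle form of phosphofructokinase, catalyses the committed step of glycolysis and lies on chromosome 27 (RefSeq, assembly UU_Cfam_GSD_1.0, as for the other genes). Its brightest probe set, 1598623_s_at, read 12.47, 12.75 and 12.81 in the Day-0 dogs. The Week-2 dogs, the lowest group, read 12.26, 12.45 and 12.62, and all 12 paced dogs lay between 12.26 and 12.80. Paced dogs thus overlapped the unpaced dogs, and 5 of 12 lay below all of them. The difference was −0.08 at Day-3, −0.19 at Week-1, −0.23 at Week-2 and −0.14 at End-stage (SE 0.15 for each), and −0.16 for the mean of the paced groups (SE 0.12, 95% interval −0.41 to 0.09). Under quantile normalisation that mean difference was −0.06. Differences between 3′ and 5′ controls, meant as signs of RNA quality, were not alike for actin and GAPDH. The log2 signal of the 3′ actin control minus that of the 5′ control was −2.70 ± 0.49 (SD, n = 3) at Day-0. The 5′ control thus read brighter, also in the paced groups, at −2.44, −2.40, −2.29 and −2.27 in order of time. The same difference for the GAPDH control lay near 0, with group means from −0.05 at Day-0 to −0.10 at Week-2. Over the 15 dogs the actin difference had an r of −0.76 with PFKM and −0.73 with GAPDH, on the same arrays. The GAPDH control difference had r values of the opposite sign, 0.63 with PFKM and 0.48 with GAPDH. The mean of the measured ventricular cardiomyocyte markers had an r of 0.92 with each. The part of these measures in the PFKM values was not tested.

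A companion PFKM probe set, 1582540_at, gave the same order of dogs to a large extent (r = 0.94 over 15 dogs, on the same arrays). It read 12.38, 12.62 and 12.70 in Day-0 dogs and 11.82, 12.24 and 12.43 in Week-2 dogs. The Week-2 group therefore still overlapped Day-0 through its highest dog. Its Week-2 difference was −0.40 (SE 0.17, unadjusted p = 0.0306, adjusted p = 0.383 by limma), a signal 1.32-fold lower. The mean of the paced groups lay 0.27 below Day-0 in log2 signal, an estimate of −0.27 with SE 0.13 and adjusted p = 0.463, and 7 of 12 paced dogs lay below all Day-0 dogs.

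A PFKM probe set at the margin of detection, 1605787_at (mean signal 27.4), read 4.97, 5.60 and 4.84 at Day-0 and 4.26, 3.73 and 3.67 at Week-2, without overlap. Of all probe sets tested, 9.21% had all Week-2 dogs below all Day-0 dogs. The Week-2 estimate was −1.25 (SE 0.38, adjusted p = 0.20 by limma), and the End-stage dogs were back at 4.78, 5.70 and 4.95. Between isolations of the same dog this probe set had an SD of 0.96, against 0.11 for each of the bright PFKM probe sets, which did not show a difference of that size.

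GAPDH oxidises glyceraldehyde 3-phosphate and makes the NADH of glycolysis. Its gene lies on chromosome 27, and its single probe set, 1582358_s_at, had a mean signal of 8087. The Day-0 dogs read 12.59, 13.31 and 13.21, and the End-stage dogs 12.60, 13.06 and 13.09. All 12 paced dogs, from 12.60 to 13.29, lay inside the range of the 3 unpaced dogs. Differences from Day-0 were 0.02, −0.13, −0.04 and −0.12 in order of time (SE 0.22 for each), and −0.07 for the mean of the paced groups (SE 0.18, adjusted p = 0.947 by limma). The 95% interval of that mean difference ran from −0.44 to 0.31, so a change of GAPDH of up to 1.24-fold upward lay within it.

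The spread of GAPDH followed the number a dog carries in the labels. Dog 1 was the lowest of its group in 5 of 5 groups, at 12.59 to 12.79, while the other 10 dogs lay between 12.90 and 13.31. The mean gap was −0.47. Both bright PFKM probe sets had dog 1 lowest in 5 of 5 groups too, with gaps of −0.26 and −0.32, and LDHA (1585217_s_at) in 4 of 5, with −0.25. For ENO1 and PGK1 (1585281_s_at) the gap was −0.05 and 0.01.

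The order was not special to glycolysis. Dog 1 was lowest in all 5 groups for 77.8% of the brightest 1% of probe sets (239 of them, median gap −0.34), and for 3.13% of all probe sets tested. The mean of the 7 measured ventricular cardiomyocyte markers showed it in 5 of 5 groups, at 12.58 to 12.75 in dogs numbered 1 and 12.89 to 13.29 in the others. None of these markers had a signal of 0. The actin 3′ minus 5′ difference was −2.36 to −1.91 in dogs numbered 1 and −3.04 to −2.04 in the others, a mean gap of 0.42, with dog 1 highest in 3 of 5 groups. The same difference for the GAPDH control had the opposite sign, with a mean gap of −0.076 and dog 1 lowest in 4 of 5 groups. The labels give the number no meaning beyond naming a dog, and the part of these measures in the GAPDH and PFKM values was not tested.

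**Figure D2:**
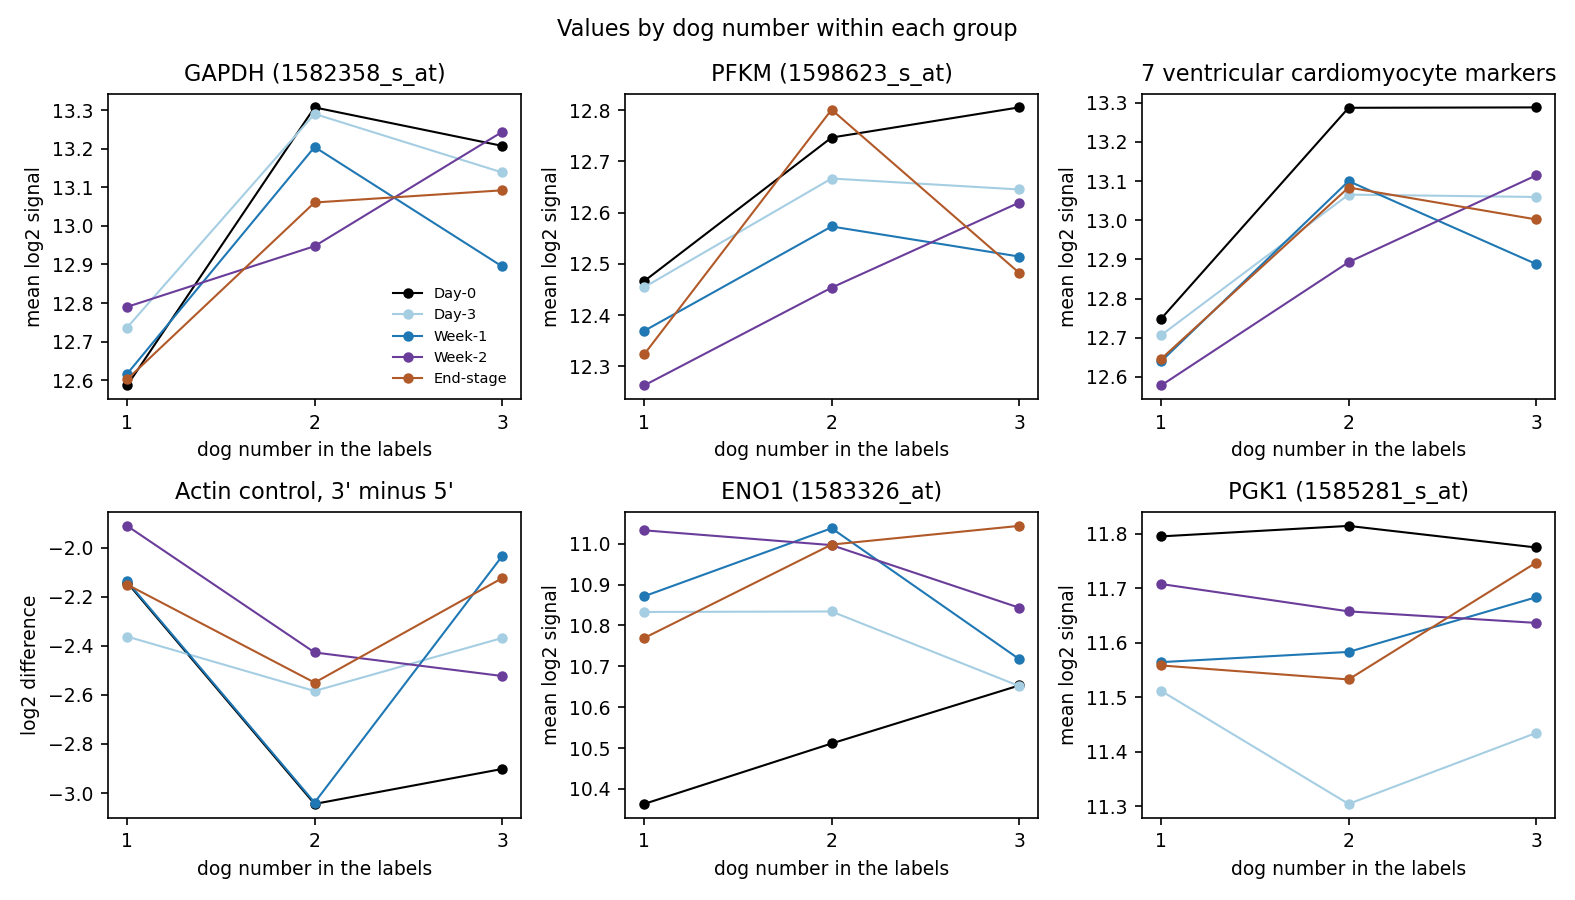
Mean log2 signal, or log2 difference for the actin control, (y axis) against the dog number in the labels (x axis), 1 line per time group. Dog 1 is the lowest of its group in 5 of 5 groups for GAPDH, PFKM and the 7 ventricular cardiomyocyte markers, and in 2 and 1 of 5 for ENO1 and PGK1.

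PGK1 passes a phosphate to ADP and makes the first ATP of the pathway. Its gene is on the X chromosome. The brightest of its 4 probe sets, 1585281_s_at, read 11.79, 11.81 and 11.77 at Day-0. Day-3 dogs read 11.51, 11.30 and 11.43, Week-1 dogs 11.56, 11.58 and 11.68, Week-2 dogs 11.71, 11.66 and 11.64, and End-stage dogs 11.56, 11.53 and 11.75. All 12 paced dogs lay below all 3 unpaced dogs, although the nearest, at 11.75, was only just below 11.77. Of all probe sets tested, 1.61% had every paced dog below every unpaced dog.

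The PGK1 difference was most negative at Day-3, at −0.38 (SE 0.10, 1.30-fold lower, unadjusted p = 0.00211, adjusted p = 0.296 by limma). It was −0.18 at Week-1, −0.13 at Week-2 and −0.18 at End-stage. The mean of the paced groups gave −0.22 (SE 0.08, 95% interval −0.39 to −0.05, adjusted p = 0.276 by limma), a signal 1.16-fold lower. All Week-1 dogs lay above all Day-3 dogs, a difference of 0.19 with an adjusted p of 0.994, and 3.68% of all probe sets had dogs that lay so. The SD of this probe set between dogs of a group, from the dog means, was 0.08. The median was 0.27 over all probe sets tested and 0.19 in the brightest 10% of them. Between isolations of a dog its SD was 0.11.

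The other PGK1 probe sets were dimmer. At a mean signal of 450, 1598895_at differed from Day-0 by −0.46, −0.18, −0.12 and −0.27 in order of time (SE 0.23 for each), and its dogs overlapped Day-0 at each time. Its Day-3 dogs read 9.02, 7.99 and 8.68 against 9.11, 8.86 and 9.09 at Day-0, so that dog 2 of Day-3 carried much of that difference. The r of both probe sets over 15 dogs was 0.75. Another, 1587792_at (mean signal 24.9), ranged from 3.79 to 5.21 and differed from Day-0 by −0.36 to −0.07, with an SE of 0.43. The dimmest, 1596036_at, had a mean signal of 6.12 and was not tested.

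ENO1, enolase 1, forms phosphoenolpyruvate, and its gene lies on chromosome 5. Its only probe set, 1583326_at, read 10.36, 10.51 and 10.65 in the Day-0 dogs. The Day-3 dogs read 10.83, 10.83 and 10.65, the Week-1 dogs 10.87, 11.04 and 10.72, the Week-2 dogs 11.03, 11.00 and 10.84, and the End-stage dogs 10.77, 11.00 and 11.04. Week-1, Week-2 and End-stage dogs all lay above every Day-0 dog, as did 11 of the 12 paced dogs. Of all probe sets tested, 6.73%, 8.08% and 6.33% had every dog above every Day-0 dog at these 3 times. The exception was dog 3 of Day-3, whose signal of 1609 stood beside 1610 in dog 3 of Day-0. At least 11 of 12 paced dogs lay above all unpaced dogs in 2.52% of all probe sets tested.

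ENO1 had the largest positive difference among the members with a mean signal above 100. It was 0.26 at Day-3, 0.37 at Week-1, 0.45 at Week-2 and 0.43 at End-stage (SE 0.12 for each), with adjusted p values of 0.617, 0.331, 0.151 and 0.270 by limma. The mean of the paced groups lay 0.38 above Day-0 (SE 0.10, 95% interval 0.17 to 0.58), a 1.30-fold higher signal, with an unadjusted p of 0.00156 and an adjusted p of 0.108. The order of the group means was Day-0, Day-3, Week-1, End-stage and Week-2. Neighbouring times under pacing differed by 0.10, 0.08 and −0.02, each less than its SE of 0.12. A moderated F test over the 5 groups gave an unadjusted p of 0.0151 and an adjusted p of 0.511.

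The ENO1 difference passed the threshold in 1 alternative, in which the 45 single arrays were fitted and the dog was a random effect. The adjusted p was then 0.000652 for the mean of the paced groups, and that model called 701 probe sets for this comparison, or 4.9% of those tested. It called 1.91%, 2.64%, 3.38% and 2.25% from Day-3 to End-stage, and 3.45% for any difference among the groups. Over all 28 alternatives tried for it, the adjusted p ran from 0.000652 to 0.384 and the estimate from 0.30 to 0.45. ENO1 was also called there at Week-1, Week-2 and End-stage, PGK1 at Day-3 (adjusted p = 0.00521) and for the mean of the paced groups, and PFKM 1582540_at at Week-2 (adjusted p = 0.0256). In 45 arrays the 3 isolations of a dog are technical repeats, and the dog remains the replicate.

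**Figure D3:**
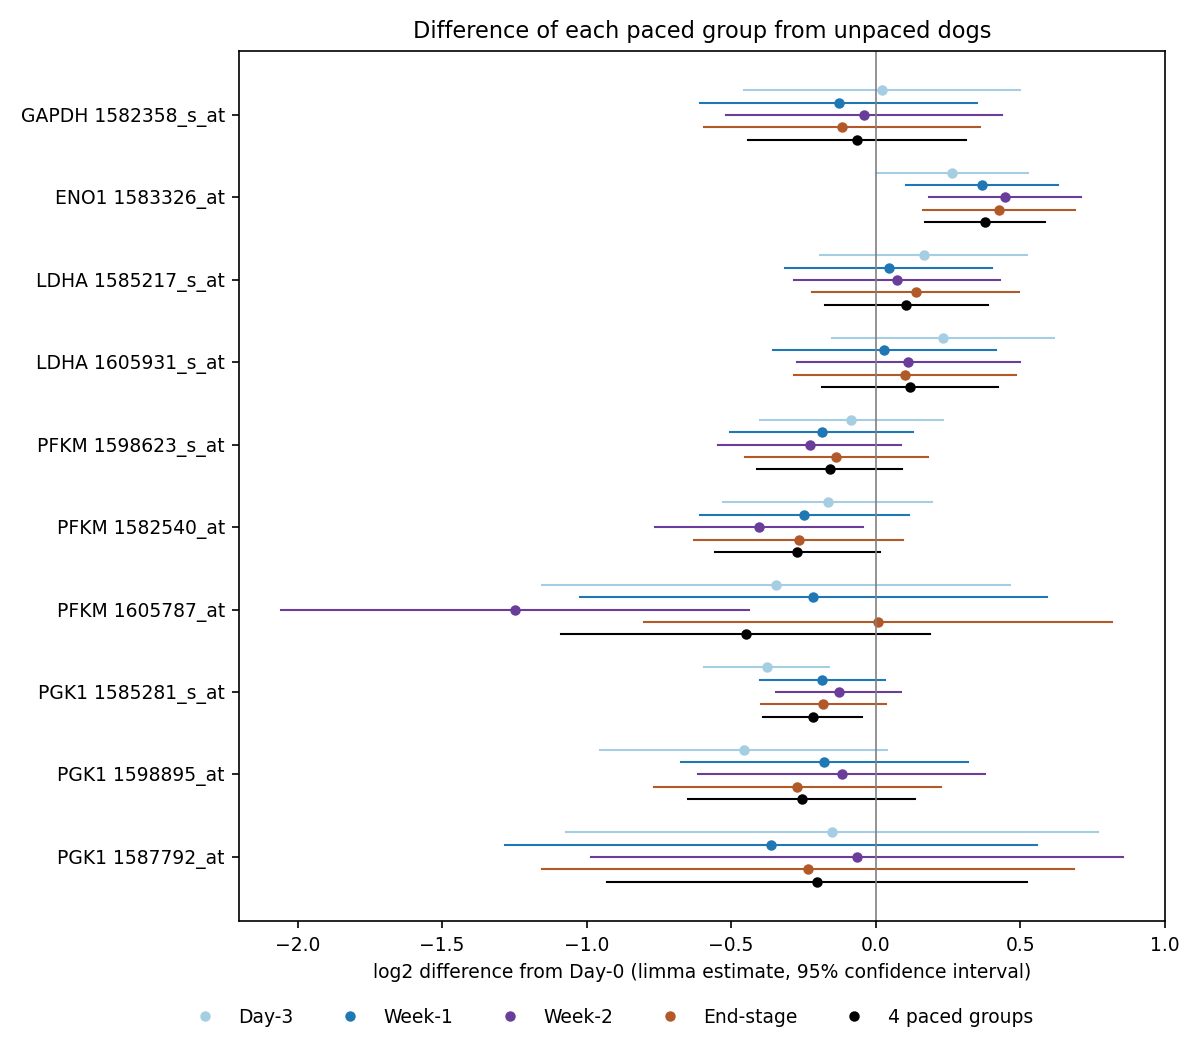
Log2 difference from Day-0 (x axis) with its 95% confidence interval for each of the 10 tested glycolytic probe sets (y axis), coloured by time group, black for the mean of the 4 paced groups. The ENO1 points lie right of 0 at 0.26 to 0.45 and those of PGK1 and PFKM mostly left of 0, and no probe set passed the adjusted threshold.

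LDHA, the muscle subunit of lactate dehydrogenase, interconverts pyruvate and lactate, and its gene is on chromosome 21. Probe set 1585217_s_at read 12.01, 12.23 and 12.35 at Day-0, and its paced dogs ran from 12.06 to 12.60 with a median of 12.28. Dog 2 of Day-3 (12.59) and dog 2 of Week-1 (12.60) were the highest, and each paced group overlapped Day-0. The differences were 0.17, 0.05, 0.07 and 0.14 in order of time, with an SE of 0.17, and 0.11 for the mean of the paced groups (SE 0.13, 95% interval −0.18 to 0.39).

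The companion LDHA probe set, 1605931_s_at, had Day-0 dogs close together at 11.88, 11.85 and 11.92. Its paced dogs spread from 11.57 to 12.42, 8 above and 3 below all unpaced dogs. The Week-2 dogs, at 11.94, 12.11 and 11.94, all lay above Day-0, as in 8.08% of all probe sets, with a difference of 0.11 (SE 0.18). The mean of the paced groups lay 0.12 above Day-0 (SE 0.14, adjusted p = 0.857 by limma). The r of both LDHA probe sets over 15 dogs was 0.86.

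LDHB, the heart subunit of lactate dehydrogenase (chromosome 27), was not measurable by the rule used here. Its single-symbol probe set, 1591670_at, had a mean signal of 3.25, below the level of 22.8 required for a test. Its log2 values ran from 1.20 to 2.21 at Day-0 and from 0.55 to 3.17 in paced dogs, with an SD between isolations of 1.48. Another 2 probe sets annotated to LDHB together with other loci were bright, at mean signals of 10337 and 8411, but cannot be assigned to 1 gene and were not taken as members. Their paced mean differed from Day-0 by −0.18 (SE 0.19, adjusted p = 0.821 by limma) and −0.13 (SE 0.19, adjusted p = 0.891). A ratio of LDHA to LDHB was not formed.

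The bright members varied less between isolations than the dim ones, but not always less than between dogs. PGK1 (1585281_s_at) had an SD of 0.11 between isolations and 0.08 between dogs of a group. The SDs between dogs here are those of dog means, which still hold part of the spread between isolations. With that part taken out, the SD of PGK1 between dogs was 0.05. For the 8 probe sets with a mean signal above 100 the isolations of a dog had an SD of 0.10 to 0.24, and dogs of 1 group one of 0.08 to 0.32. In the brightest 10% of probe sets the medians were 0.14 and 0.19. GAPDH, often used as a reference transcript, had the largest isolation SD of the 8, at 0.24, and an SD of 0.30 between dogs.

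Genes with the most similar profile over the 15 dogs differed from member to member, and the r values describe the same arrays. GAPDH was most like MYH7 (r = 0.99), CRYAB (0.98) and TNNC1 (0.98), a myosin heavy chain, a small heat shock protein and a troponin of cardiac muscle. PFKM was most like DSP (0.94), ACTC1 (0.92) and MYL3 (0.91), a desmosome protein, cardiac actin and a ventricular light chain. For LDHA they were MYOM1 (0.90), PDLIM1 (0.89) and RNF181 (0.89). PGK1 was most like IDH3A (0.91), a Krebs cycle enzyme subunit, ACTA1 (0.89) and IMMT (0.87), a protein of the inner mitochondrial membrane. ENO1 was most like NPTN, a cell adhesion molecule, by 2 of its probe sets (0.92 and 0.89), and C7H1orf21 (0.89).

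With groups centred on their own means, the r with the nearest gene stayed at 0.99 for GAPDH and 0.94 for PFKM, and was 0.81 for ENO1 and NPTN and 0.69 for PGK1 and IDH3A. Among the members and without centring, GAPDH and PFKM (1598623_s_at) had an r of 0.78 over 15 dogs and GAPDH and ENO1 one of 0.10. With groups centred these were 0.85 and 0.40. ENO1 and LDHA (1585217_s_at) then had an r of 0.74, and GAPDH and PGK1 (1585281_s_at) one of −0.15. The 5 tested genes thus did not share 1 profile across dogs.

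Genes connected to glycolysis, in 8 lists, gave 63 tested genes with 104 probe sets. None of them passed the adjusted threshold in any comparison. At an unadjusted p under 0.05 the mean of the paced groups differed from Day-0 for 24 of the 104 probe sets, or 23.1%, against 11.7% of all probe sets tested. At single times 14 to 20 did, from 13.5% at End-stage to 19.2% at Day-3, against 8.23% and 8.07% of all probe sets. The smallest adjusted p was 0.0610 (limma). Gene values below are those of the brightest probe set of a gene, and estimates are differences from Day-0.

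Of the 23 other glycolytic enzymes 11 were tested, and 4 estimates of the mean of the paced groups were above 0 and 7 below (median −0.03). GPI, TPI1, PGAM1 and PKM, enzymes of the main chain from glucose to pyruvate, were at −0.02, −0.18, −0.12 and −0.08. They were named after their values were seen and do not stand for the whole chain. The other tested enzymes HK1, PFKL, PGAM2 and LDHD are not given singly. The muscle enolase ENO3 was at −0.27 (SE 0.12, adjusted p = 0.406), opposite in sign to ENO1, a difference between genes that was not tested. The platelet phosphofructokinase PFKP was at 0.95 (SE 0.52), with Week-2 dogs at 8.83, 9.01 and 7.81 above the Day-0 dogs at 5.73, 7.12 and 7.65, as in 8.08% of all probe sets. ALDOC, an aldolase, was at 0.86 at Day-3 (SE 0.30, adjusted p = 0.455). Its group means were 6.14 at Day-0, then 6.99, 6.25, 5.97 and 6.34 in order of time, so Week-2 lay below Day-0.

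Among 8 tested regulators of the pathway the median was 0.14. FBP2, the muscle fructose bisphosphatase, was at 0.57 at Day-3 (SE 0.26). Its group means were 7.23 at Day-0, then 7.80, 6.97, 7.57 and 7.26 in order of time, so Week-1 lay below Day-0. TIGAR and PFKFB3 were at 0.21 and −0.10 for the mean of the paced groups. The 4 tested transport genes all had estimates above 0 (median 0.23). SLC2A3, a glucose transporter, read 8.89, 9.12 and 8.70 at Week-2 against 7.69, 8.11 and 8.14 at Day-0, a difference of 0.92 (SE 0.21, adjusted p = 0.0959 by limma). Its End-stage dogs, at 8.16, 8.02 and 8.65, overlapped Day-0. SLC2A1, the widely expressed glucose transporter, was at 0.65 (SE 0.33), and BSG, a partner of lactate transporters, at 0.13.

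Estimates for the glycogen list were below 0 for 7 of 8 tested genes (median −0.14). PYGM, muscle glycogen phosphorylase, was lowest at −0.62 (SE 0.22, adjusted p = 0.247), with PGM1 at −0.19 and PHKG1 at −0.16. Of the 10 tested genes for the entry of pyruvate into mitochondria 9 were below 0 (median −0.27). PDHB, a subunit of pyruvate dehydrogenase, read 11.31, 11.49 and 11.37 at Day-0 and 10.86 to 11.11 in all 12 paced dogs, without overlap. Every paced dog lay below every unpaced dog in 1.61% of all probe sets. Its mean difference was −0.38 (SE 0.08, adjusted p = 0.0610 by limma). PDK2, a kinase that inhibits that complex, also lay below Day-0 in all 12 paced dogs, though the nearest pair both read 11.49 (−0.37, SE 0.11, adjusted p = 0.163), and PDK1 was at −0.22.

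All 6 tested genes of the shuttles that carry NADH equivalents into mitochondria had estimates below 0 (median −0.27). SLC25A12, an aspartate-glutamate carrier, lay below Day-0 in all 12 paced dogs, as did 1.61% of all probe sets, with the nearest at 8.21 against 8.22 (−0.46, SE 0.14, adjusted p = 0.165 by limma). SLC25A11 was at −0.30 (SE 0.09) and GPD2 at −0.82 (SE 0.29). In the pentose phosphate and hexosamine branches 5 of 6 tested genes were above 0 (median 0.15), with GNPNAT1 at 0.25, PGD at 0.15 and OGT at −0.18.

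Of 10 tested hypoxia response genes, 8 had estimates above 0 (median 0.43), against 52.8% of all probe sets below 0. ADM, the vasodilator adrenomedullin, was at 0.77 (SE 0.21, adjusted p = 0.127), and ANKRD37 lay above Day-0 in all 12 paced dogs, as did 0.909% of all probe sets (0.59, SE 0.16, adjusted p = 0.126 by limma). The histone demethylase KDM3A, a dim probe set, was at 1.03 at Day-3 and 0.04 at End-stage. Its Day-0 dogs read 5.03, 3.77 and 5.03, so that dog 2 of Day-0 carried part of the Day-3 difference. VEGFA had the opposite sign, at −0.55.

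**Figure D4:**
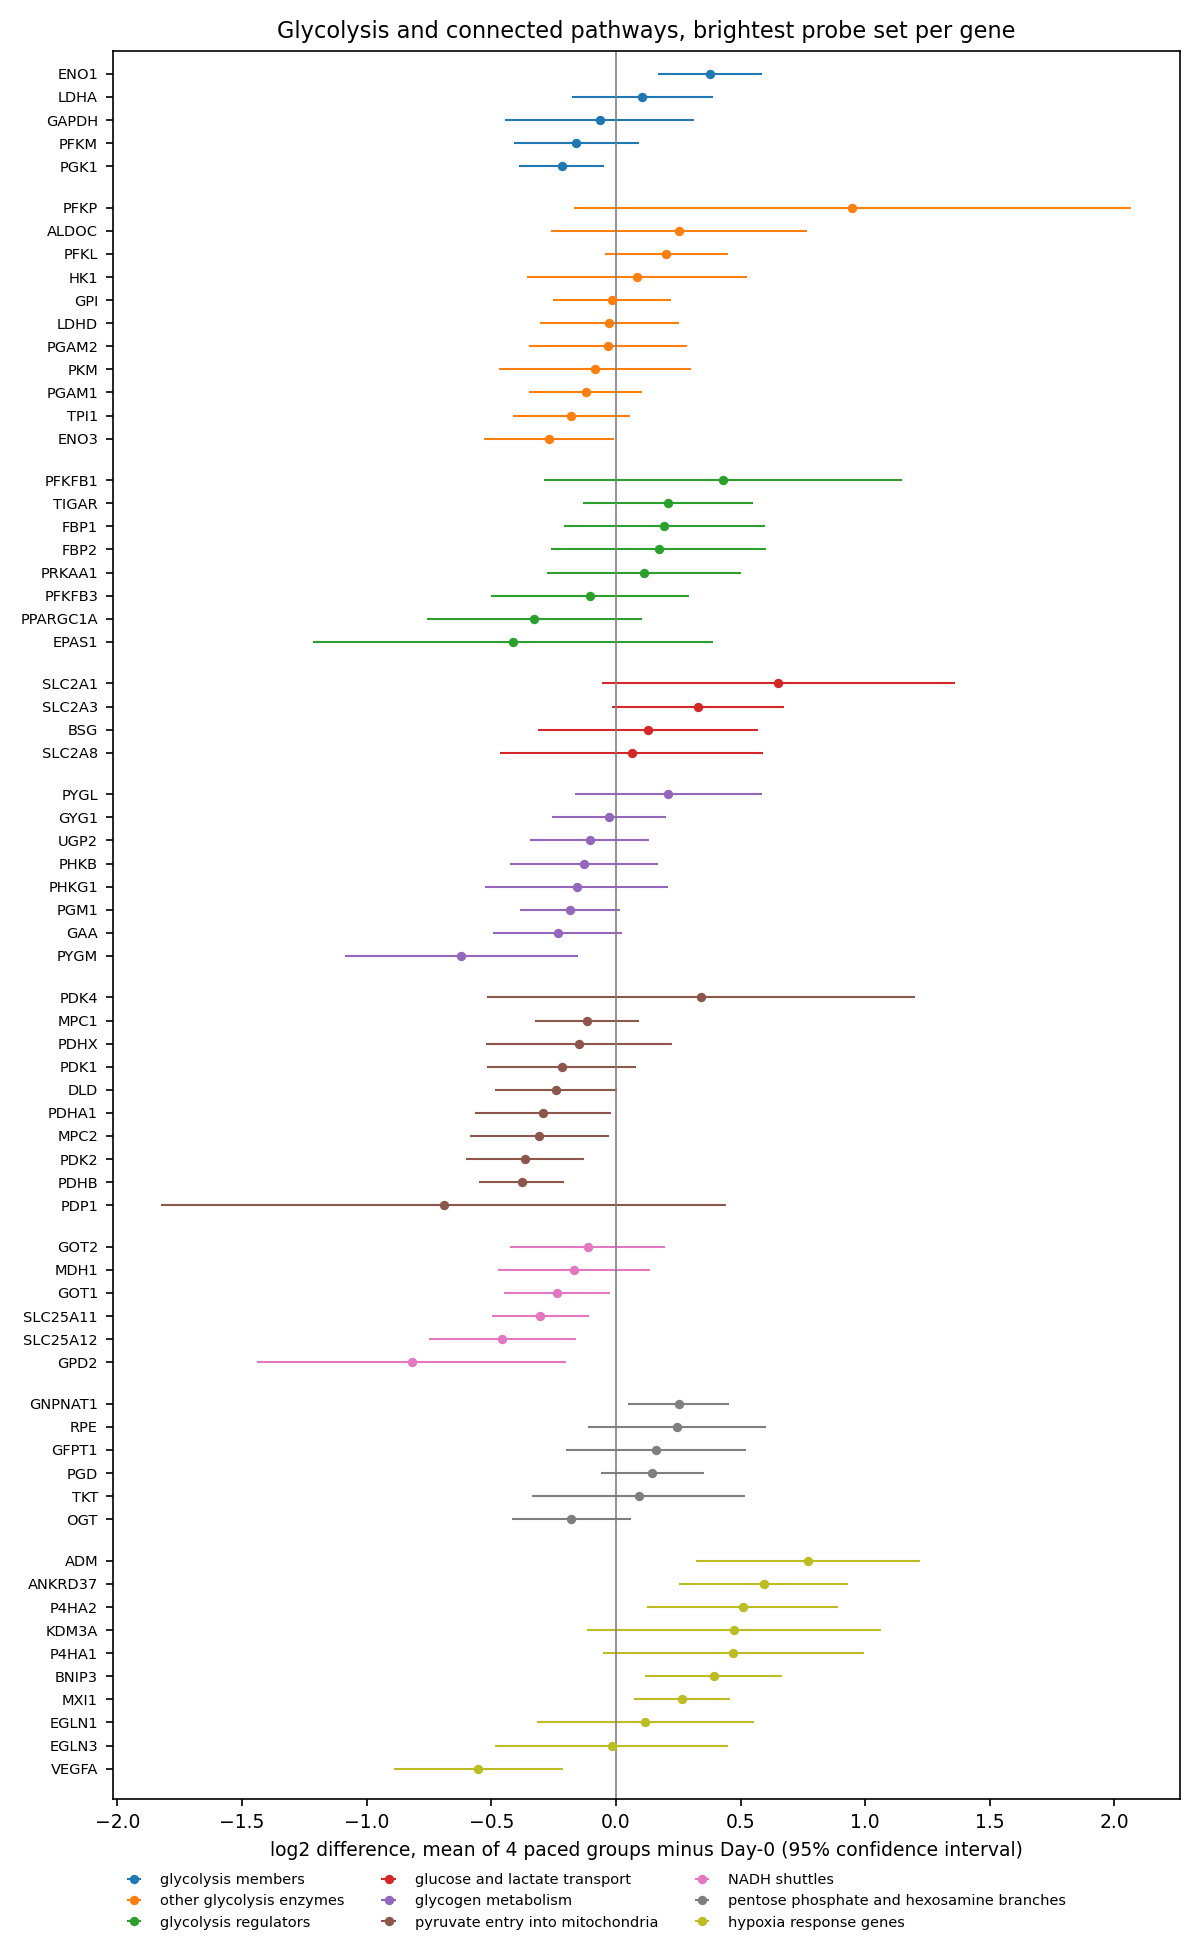
Log2 difference of the mean of the 4 paced groups from Day-0 (x axis) with its 95% confidence interval, for the brightest probe set of each tested gene (y axis), coloured by list. ENO1 is highest among the members at 0.38, the pyruvate entry and NADH shuttle genes lie mostly left of 0 (9 of 10 and 6 of 6), the hypoxia response genes mostly right (8 of 10), and no gene passed the adjusted threshold.

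No marker of a cell type passed the test. Ventricular cardiomyocyte markers had estimates below 0 for 7 of 7 measured genes (median −0.17), and their mean level ran from 12.75 to 13.29 at Day-0 and from 12.58 to 13.11 in Week-2 dogs. Macrophage markers were above 0 for 6 of 6 measured genes (median 0.26), at 5.79 to 6.16 at Day-0 and 6.07 to 6.87 at Day-3. Fibroblast markers were above 0 for 4 of 5 (median 0.36), smooth muscle markers below 0 for 5 of 5 (median −0.33) and endothelial markers below 0 for 4 of 5 (median −0.22). RYR2 was the lowest of the ventricular markers, at −0.47 (SE 0.11, adjusted p = 0.0711 by limma). No measured marker had a signal of 0, and some estimates lay near 0, such as TAGLN at −0.01 (SE 0.15) and DCN at −0.07 (SE 0.17). The part of the markers in the ENO1, PGK1 and PFKM differences was not tested.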

How the data were processed

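Per the submitters' processing notes, signals were computed with GCOS 1.4 and MAS5; other steps are not given in the sources used here. The authors deposited MAS5 signal intensity on a linear scale, 1 value a probe set, for 45 arrays of 15 dogs; the mean without the lowest and highest 2% of probe sets was 150.02 to 150.026 on every array, so the authors had scaled the arrays. Sequencing depth does not apply, and the 3 dogs per group limit the precision. Of 23913 probe sets, 77 controls were left out, and symbols came from the array's 2016 annotation (10549 probe sets with 1 symbol, 138 with several, 13149 with none, which may hold members unnamed here). Of those with 1 symbol, 10046 matched RefSeq, assembly UU_Cfam_GSD_1.0.

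The log2 signals of a dog's 3 arrays were averaged. Probe sets in the dimmest 40% (signal below 22.8) were left out, which left 14302. One model with 5 group means was fitted to the 15 dogs in R 4.3.3, by lmFit and eBayes of limma 3.58.1 with an intensity trend, with two-sided p values, Benjamini-Hochberg adjustment over all probe sets of a comparison and a threshold of 0.05. The fit was run on simulated data in which each dog varied independently, as a check of the code only. No result here rests on it. Whether the dogs of a group came from separate litters or days is not given, and p values measure the spread between these dogs.

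The members, lists and comparisons were chosen with earlier results of these data known. Named genes were the members, from each list up to 3 genes with the smallest F test p and any gene past the threshold (there was none), and for each member the 3 probe sets of another symbol with the highest Pearson r; GPI, PGAM1, TPI1, PKM, VEGFA and RYR2 were named after their values were seen. Of the listed markers, those of neutrophils, erythroid cells and Schwann cells had no tested gene; lymphocyte markers (2 tested) had a median of −0.05, atrial (2) −0.50, adipocyte (1) 0.73 and skeletal muscle (1) −0.30. Pairing by dog number was checked by the r of same-numbered dogs' deviations from their group means: every r was over 0.1 for Day-3 with Week-1 (0.167 to 0.318), Day-3 with Week-2 (0.101 to 0.173) and Week-2 and End-stage (0.102 to 0.242), and not with Day-0. The pairing comes from the data, not the labels. Alternatives were scaling, pseudocount, filter, trend, samples in the fit, isolations, dogs left out and the replicate block.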

Additional observations from a re-analysis of the deposited data

How the results depend on the processing

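Of 194 recomputed counts of glycolytic probe sets past the threshold, 188 stayed at 0. The other 6 came from the model on 45 single arrays, where the dog was a random effect: 1 at Day-3 (PGK1), 1 at Week-1 (ENO1), 2 at Week-2 (ENO1 and PFKM), 1 at End-stage (ENO1), 2 for the mean of the paced groups (ENO1 and PGK1) and 2 for any difference among the groups (ENO1 and PGK1). That fit called 273, 377, 483, 322, 701 and 493 probe sets in all, where the fit on dogs called 0, 4, 12, 2 and 43 for the comparisons with Day-0. Leaving out each dog in turn gave counts from 0 to 0 in every comparison that used its group. With the replicate block (dog number) the counts were also 0, and no call changed. The block narrowed the interval of the mean GAPDH difference from −0.44 to 0.31 to one from −0.25 to 0.11. For the same comparison the blocked interval was −0.30 to −0.01 for PFKM 1598623_s_at. It was −0.43 to −0.11 for PFKM 1582540_at (adjusted p = 0.0906 by limma) and 0.19 to 0.57 for ENO1 (adjusted p = 0.0560). PGK1 1585281_s_at had −0.35 to −0.08 (adjusted p = 0.104), and LDHA 1585217_s_at −0.08 to 0.29. Of 1657 recomputed member estimates, 99 changed sign, all for differences that had not passed; ENO1 against Day-0 kept its sign in every alternative run. Median centring moved the median of all probe sets by −0.12 between Week-1 and Week-2 and 0.13 between Week-2 and End-stage. The difference of LDHA and LDHB, planned at the start, was not formed because the only single-symbol LDHB probe set was too dim. Groups of 3 dogs were too small for the check on single dogs far from the others, and differences near the SEs given could not be detected. Differences well above their SE did not pass either. ENO1 for the mean of the paced groups, at 0.38 (SE 0.10), had an adjusted p of 0.108 by limma. PGK1 1585281_s_at at Day-3, at −0.38 (SE 0.10), had one of 0.296. A count of 0 thus does not mean that no member changed.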
